A study of Saccharomyces cerevisiae with 15 samples.

Results

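Budding yeast takes up and scavenges inorganic phosphate with a small set of transporters and secreted acid phosphatases, and 10 genes of that set are described here. They are the high-affinity transporters PHO84 and PHO89, the low-affinity transporters PHO87, PHO90 and PHO91, the acid phosphatases PHO5, PHO11, PHO12 and PHO3, and SPL2, a small regulator of the low-affinity transporters. The genes were listed by name and found by exact match to the gene symbol of the array probes, and all 10 were measured among 6256 genes on the arrays. The series holds 15 samples, of which 13 are sequencing libraries that were not analysed here. The 2 arrays give the reference expression levels of the study. On each, Cy3 marks total RNA of BY4741 and Cy5 marks genomic DNA, both applied to the same spots. BY4741 is a laboratory strain of mating type a, haploid, in which HIS3, LEU2, MET17 and URA3 are deleted. The sample name gives YPD, a rich glucose medium, as the medium of the arrays. The DNA channel is named BY4741 in one label and tagged progenitor in another. There is no treated, starved or mutant sample, so every comparison is between genes within the same 2 arrays.

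The genes work as one system. When phosphate is plentiful, the cyclin-kinase pair Pho80-Pho85 phosphorylates the transcription factor Pho4 and keeps it out of the nucleus. When phosphate is scarce, the inhibitor Pho81 blocks the kinase, and Pho4 with Pho2 switches on PHO84, PHO89, SPL2 and the repressible phosphatases PHO5, PHO11 and PHO12. PHO87 and PHO90 are not under that control and carry phosphate when it is abundant. PHO91 was described as a transporter of the same low-affinity family and lies in the vacuolar membrane. PHO3 encodes the constitutive acid phosphatase, which is not repressed by phosphate and responds to thiamine instead.

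The value used for each gene is log2(RNA/DNA), the brightness of the RNA channel at its probe divided by that of the DNA channel at the same spot, relative to the median gene of that array. Each gene had 1 probe printed as 7 spots, and all 7 spots of all 10 genes were usable on both arrays. The ratio comes from 1 short probe, so it does not grow with the length of the gene. Over all genes, the median RNA intensity was 1135 (array 1) and 1390 (array 2), and the median DNA intensity 4184 and 4558. RNA counted as detected above 17.05 and 32.9, a floor set from the negative control spots. The lowest RNA signal among the 10 genes, that of PHO87, was 55.7 times the floor on array 1 and 36.8 times on array 2, so none of their values is a bound. The arrays lie on 1 slide, and nothing in the labels says that they came from separate cultures, so the spread between them, and every p-value built on it, may be technical. Their number limits the precision. The strain markers went with the label: HIS3, LEU2, MET17 and URA3 had DNA intensities from -3.11 to 7.39. The a-cell genes examined were called above the median gene (5 of 5) and the alpha-cell genes below (4 of 4). Over all genes these shares were 28.2% and 31.2%. RNA of the alpha-cell gene MF(ALPHA)1 was under the floor, at 9.5 and 14.5, so its value is a bound.

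SPL2 and PHO84 had the highest ratios of the 10 genes, the phosphatases PHO11, PHO12 and PHO3 came next, PHO89 and PHO5 lay close to 1 on the log2 scale, and the low-affinity transporters lay near the median gene. A gene was called above or below the median gene at an adjusted p under 0.05 in limma, over all 6250 genes kept, if its log2 value was also 1 or more from 0. Of the 10 genes, 7 were called above, 0 below and 3 were not called. Of all genes, 28.2% were called above and 31.2% below. The median of the 10 genes was 1.36, against -0.002 over all genes, whose quartiles were -1.45 and 1.17.

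**Figure D1:**
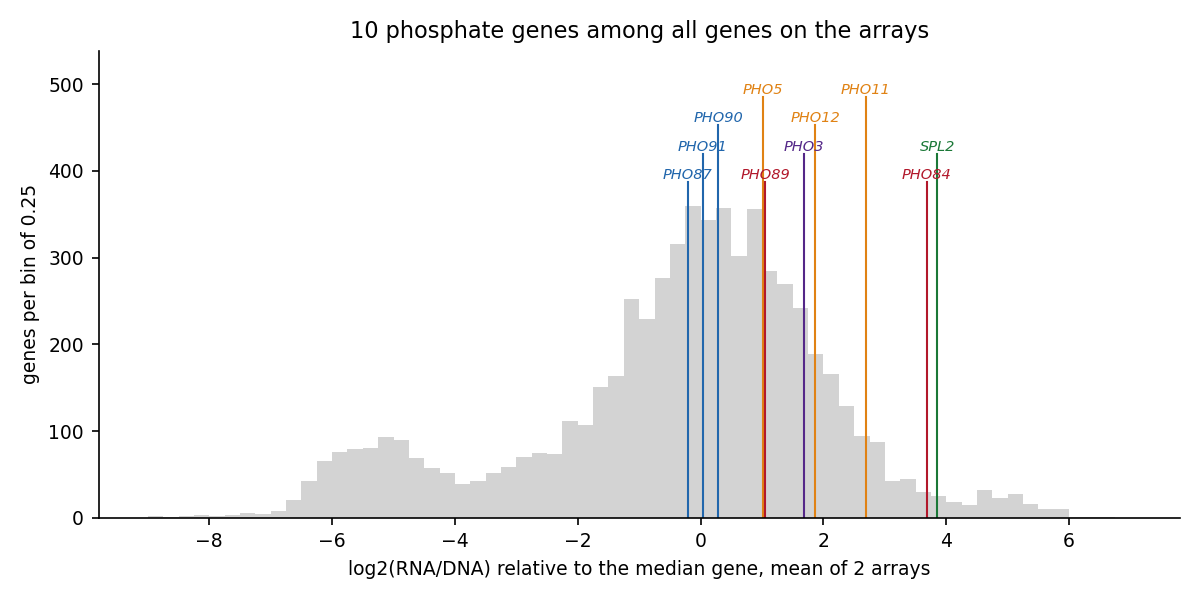
Distribution of log2(RNA/DNA), relative to the median gene and averaged over 2 arrays, for the 6250 genes kept; the vertical axis counts genes per bin of 0.25, and each coloured line marks 1 of the 10 phosphate genes. The low-affinity transporters (blue) lie at the centre of the distribution, between -0.21 and 0.29, while PHO84 (red) and SPL2 (green) lie in its upper tail at 3.68 and 3.85.

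PHO84 encodes the main high-affinity transporter, which brings phosphate into the cell together with protons. Its RNA signal was 35992 on array 1 and 42570 on array 2, against DNA signals of 9363 and 10501, so RNA stood at 3.74 and 4.03 times DNA. Relative to the median gene, its log2 ratio was 3.72 (array 1) and 3.64 (array 2), a mean of 3.68 ± 0.06 (SD, n = 2), or 12.8-fold, with an adjusted p of 5.3e-05 in limma. It ranked 188 from the top of 6250 genes. Both arrays put it far above the median gene, and its spots were close together: they ran from 3.69 to 3.83 on array 1 and from 3.60 to 3.70 on array 2. Actin (ACT1), for scale, was at 3.89 ± 0.15.

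PHO89 encodes the other high-affinity transporter, which uses sodium and works best at alkaline pH. Its RNA signals were 3689 and 4541, against DNA signals of 6470 and 6996. The log2 ratios of the gene were 1.06 and 1.03, a mean of 1.05 ± 0.02 (n = 2), or 2.07-fold above the median gene, with an adjusted p of 0.000188 in limma. The value is barely past the threshold of 1, and with genes at the floor left out of the median, which moved the ratios by -0.195, it was 0.85 and not called. PHO84 thus exceeded PHO89 by 2.63 ± 0.04 (n = 2), a 6.2-fold difference, on the log2(RNA/DNA) scale, and no spot of PHO84 overlapped one of PHO89.

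PHO90 and PHO87 encode plasma membrane transporters of low affinity, with an SPX domain that senses phosphate status. PHO90 had log2 ratios of 0.25 and 0.32, a mean of 0.29 ± 0.06 (n = 2), and PHO87 had -0.24 and -0.18, a mean of -0.21 ± 0.04 (n = 2). PHO91, of the same SPX family, had 0.05 and 0.03, a mean of 0.04 ± 0.02 (n = 2). None of the 3 was called, and their ranks of 2733, 3074 and 3417 surround the middle of the 6250 genes. The adjusted p in limma was 0.00666 for PHO90, 0.0111 for PHO87 and 0.325 for PHO91, so the first 2 missed the call by their size and not by their p. RNA was well detected for each: the intensities were 1683 and 2130 for PHO90, 949.5 and 1213 for PHO87, and 2594 and 3124 for PHO91. PHO91 also had the highest DNA signal of the 3, 8260 and 9517, against 4316 and 5323 for PHO90 and 3742 and 4482 for PHO87. With the RNA channel alone, PHO91 was at 1.18 and called above the median gene, and without genes at the floor its ratio changed sign, to -0.16.

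**Figure D2:**
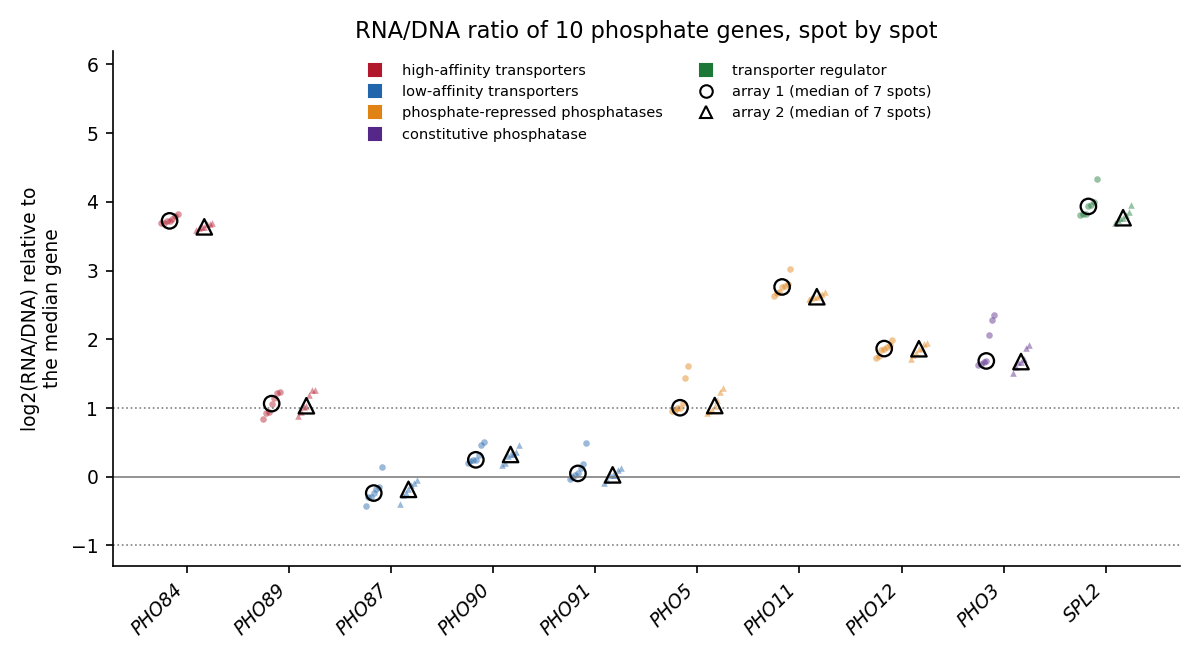
Log2(RNA/DNA) relative to the median gene for the 10 genes, with each spot as a small filled mark (spread sideways for visibility) and the median of 7 spots as a large open mark, circles for array 1 and triangles for array 2; dotted lines mark 1 and -1. Spots of PHO84 lie within 3.60 to 3.83, while those of PHO3 spread from 1.51 to 2.35.

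The high-affinity transporters exceeded the low-affinity ones. The mean of PHO84 and PHO89 was 2.39 on array 1 and 2.34 on array 2, and the mean of PHO87, PHO90 and PHO91 was 0.02 and 0.06. The difference was 2.38 on array 1 and 2.28 on array 2, a mean of 2.33 ± 0.07 (n = 2), or 5.02-fold, many times the spread between arrays. An exact two-sided permutation test that flips the signs of the 2 array differences gave p = 0.5, the smallest p that 2 arrays allow, so this test cannot pass a threshold of 0.05. Leaving PHO91 out of the low-affinity group gave the same mean, 2.33. PHO84 and PHO89 contributed unequally: against the low-affinity mean, PHO84 alone was 3.64 ± 0.09 higher and PHO89 alone 1.01 ± 0.05 higher (n = 2 each).

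In limma across all genes, each set against the mean of PHO87, PHO90 and PHO91 on the same array, PHO84 had an adjusted p of 4.115e-05 and PHO89 of 0.000214, and both were called above that mean. Of the 7 phosphate genes outside that mean, these included, 6 were called above it and 0 below it. Of all genes, 27.4% were called above it and 31.7% below. The call of PHO89 was marginal: its difference was 0.99 with gradient-corrected signals and 0.998 without background subtraction, both under the threshold. PHO5 was the gene not called, at 0.98 ± 0.003 (n = 2). It was called with the mean over spots, at 1.05, with gradient-corrected signals, at 1.03, and with the RNA channel alone, at 1.755. The nearest pair across the groups was PHO89 and PHO90, where PHO89 was 0.82 higher on array 1 and 0.71 on array 2, and no spot of PHO89 fell among those of PHO90.

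**Figure D3:**
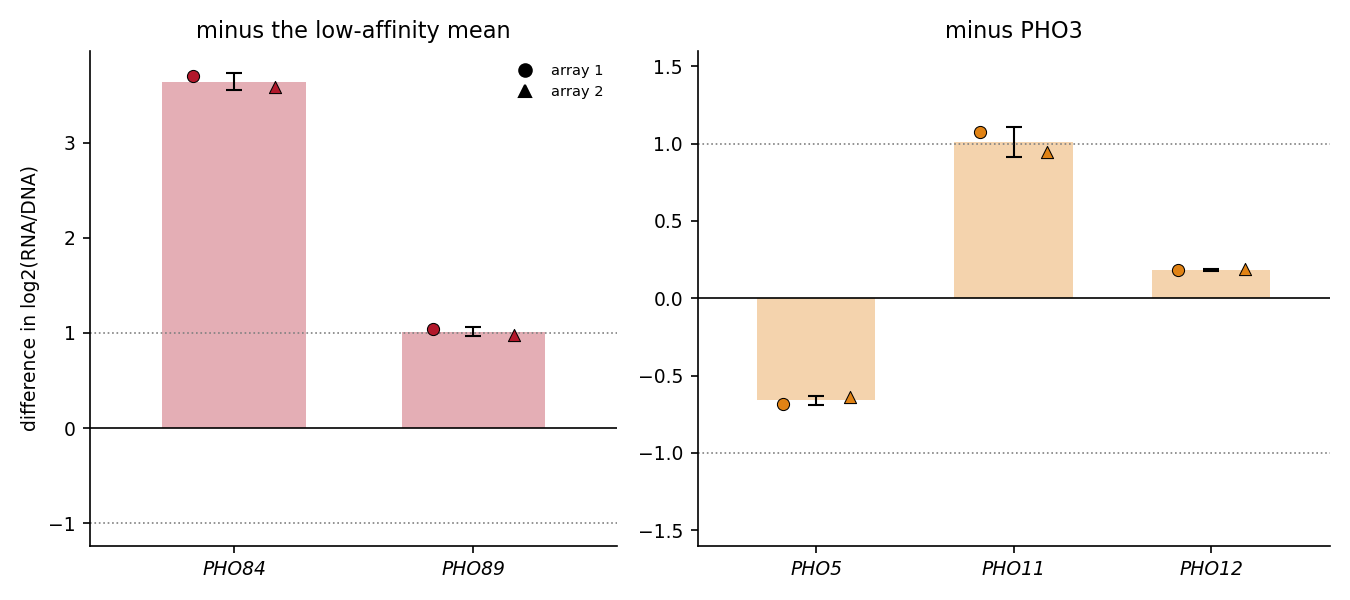
Differences in log2(RNA/DNA) within each array: the high-affinity transporters minus the mean of the 3 low-affinity transporters (left) and the phosphate-repressed phosphatases minus PHO3 (right); bars are means of 2 arrays with the SD, circles array 1 and triangles array 2, and dotted lines mark 1 and -1. PHO84 stands at 3.64 and PHO89 at 1.01 on the left, and PHO5 lies below PHO3, at -0.66, where PHO11 lies above it, at 1.01.

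The acid phosphatases release phosphate from organic molecules outside the cell, in the periplasm and cell wall. PHO5 encodes the main repressible enzyme, and PHO11 and PHO12 encode near-identical copies of another. PHO5 and PHO3 are similar in sequence too and lie next to each other, with 0 protein-coding genes between them in the RefSeq annotation R64. Signal at these probes may therefore be shared, most of all between PHO11 and PHO12, and how much was not tested.

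PHO11 was the highest phosphatase. Its RNA signals were 25364 and 33025, against DNA signals of 13750 and 15903, and its log2 ratios were 2.76 and 2.62, a mean of 2.69 ± 0.10 (n = 2), or 6.46-fold above the median gene. PHO12 had RNA signals of 22167 and 27668, against DNA signals of 21599 and 23282, and log2 ratios of 1.865 and 1.86, a mean of 1.86 ± 0.001 (n = 2), or 3.64-fold. Both were called above the median gene, with adjusted p of 8.9e-05 and 7.4e-05 in limma. Although the genes are near-identical, PHO11 exceeded PHO12 by 0.90 on array 1 and 0.76 on array 2, and their spots did not overlap on either array. Most of that gap lay in the DNA channel: with the RNA channel alone PHO11 exceeded PHO12 by 0.225. The DNA signals of PHO12 and PHO11 were at percentiles 98.9 and 97.7 of all genes. DNA is the denominator of the ratio.

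PHO5 had RNA signals of 5453 and 6734, against DNA signals of 9095 and 10208. The log2 ratios of PHO5 were 1.004 and 1.04, a mean of 1.02 ± 0.02 (n = 2), or 2.03-fold above the median gene, with an adjusted p of 0.000198 in limma. Without genes at the floor it was 0.825 and not called. PHO3 had RNA signals of 4830 and 6572, against DNA signals of 5062 and 5945, and log2 ratios of 1.685 and 1.68, a mean of 1.68 ± 0.01 (n = 2), or 3.21-fold, with an adjusted p of 8.4e-05 in limma. The constitutive gene was thus above the median gene as well. Its spots scattered most of the 10 genes on array 1, with a spot SD of 0.32, against 0.20 for the median gene. Those of PHO5 had an SD of 0.26 on the same array.

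**Figure D4:**
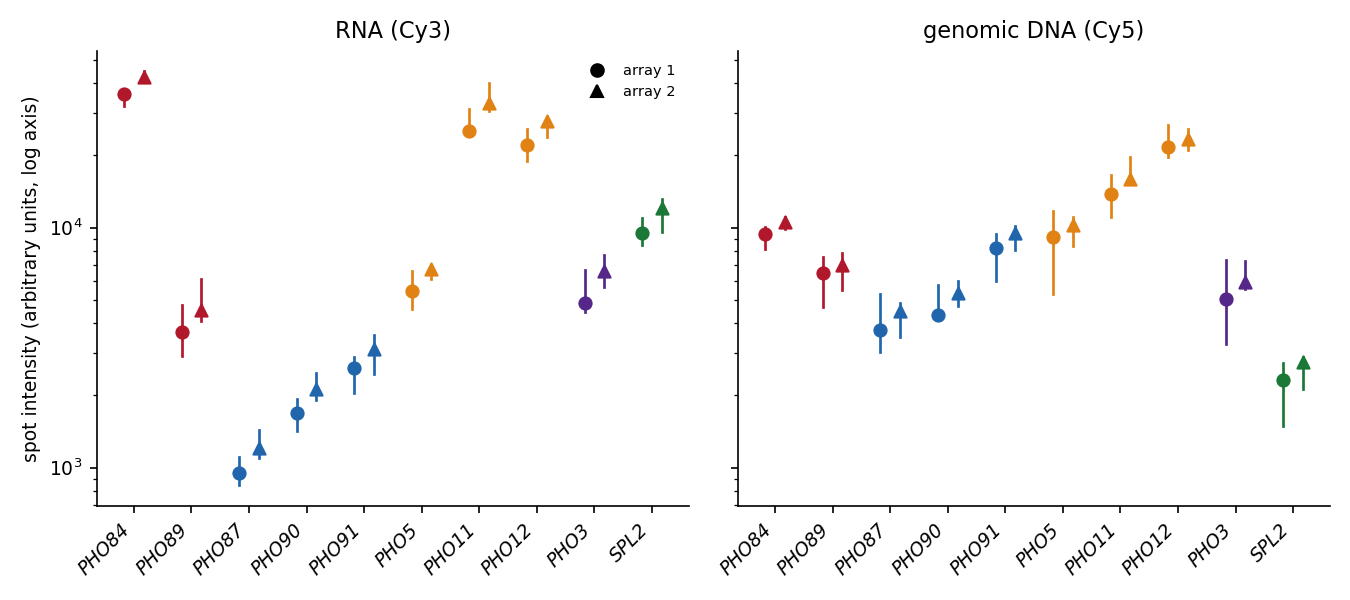
Spot intensity of the 10 genes in the RNA channel (left) and the genomic DNA channel (right), in arbitrary units on a log axis; marks are medians of 7 spots, circles for array 1 and triangles for array 2, and bars run from the lowest to the highest spot. RNA spans from 949.5 for PHO87 to 42570 for PHO84, and DNA from 2323.5 for SPL2 to 23282 for PHO12.

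As a group, the phosphate-repressed phosphatases lay close to the constitutive one, with members on both sides of it. The mean of PHO5, PHO11 and PHO12 was 1.88 on array 1 and 1.84 on array 2, and PHO3 was at 1.685 and 1.68. The difference was 0.19 and 0.16, a mean of 0.18 ± 0.02 (n = 2), or 1.13-fold. The exact two-sided permutation test over the 2 arrays again gave p = 0.5, the smallest it can give. This small difference depended on the spot summary and on the channel: it was 0.08 ± 0.09 with the mean over spots and 1.53 ± 0.08 with the RNA channel alone (n = 2 each). The DNA signal differed as well, by 1.43 ± 0.05 on the log2 scale (n = 2), with 1.75 for the repressed genes and 0.33 for PHO3, both relative to the median gene.

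Gene by gene, PHO11 was 1.01 ± 0.09 above PHO3, PHO12 was 0.18 ± 0.005 above it, and PHO5 was lower than PHO3, at -0.66 ± 0.03 (n = 2 each). In limma across all genes, each set against PHO3 on the same array, the adjusted p was 0.000553 for PHO11, 0.0115 for PHO12 and 0.000534 for PHO5. PHO11 alone of the 3 passed the threshold of 1, and it missed it with the mean over spots, at 0.89, and with gradient-corrected signals, at 0.94. With the RNA channel alone, PHO5 was slightly higher than PHO3, by 0.105. Of the other 9 phosphate genes, 3 were called above PHO3 (SPL2, PHO84 and PHO11) and 3 below it (PHO87, PHO90 and PHO91). From RNA alone, SPL2 at 0.925 and PHO91 at -0.985 lost these calls. Of all genes, 6.48% were called above PHO3 and 65.1% below. Spots of PHO12 and PHO3 overlapped on both arrays, and the difference between them was 0.044 with the mean over spots and 2.14 with the RNA channel alone, where PHO12 was called above PHO3.

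SPL2 encodes a small protein that holds down the low-affinity transporters when phosphate is short, so that uptake shifts to the high-affinity ones. It had the highest ratio of the 10 genes, with RNA signals of 9520 and 12023, against DNA signals of 2323.5 and 2754. The log2 ratios of SPL2 were 3.93 and 3.77, a mean of 3.85 ± 0.12 (n = 2), or 14.4-fold above the median gene, with an adjusted p of 6.7e-05 in limma and rank 176 of 6250. SPL2 and PHO84 were close: SPL2 was 0.21 higher on array 1 and 0.13 on array 2, while their spots overlapped on both arrays. Unlike PHO84, SPL2 had a low DNA signal, at percentile 11.8 of all genes against percentile 93.3 for PHO84. With the RNA channel alone SPL2 was at 3.09 and PHO84 at 4.96, so that the order of these genes turned round. With gradient-corrected signals the ratios differed by 0.013.

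In descending order, the log2(RNA/DNA) ratios ran SPL2, PHO84, PHO11, PHO12, PHO3, PHO89, PHO5, PHO90, PHO91 and PHO87. Of the 45 pairs, 44 differed with the same sign on both arrays and by more than 2 SD of their difference. The exception was PHO89 and PHO5, which differed by 0.06 on array 1 and -0.004 on array 2. No such share was computed for pairs of other genes, so the count does not set these genes apart. The bar is also low. The median SD between arrays was 0.038 for genes above the floor, while the quartiles of all genes were -1.45 and 1.17. PHO12 and PHO3 passed it at 0.184 ± 0.005, although their difference was 0.044 with the mean over spots. Among the 9 pairs of neighbours in this order, spots overlapped on at least 1 array in 5, namely SPL2 with PHO84, PHO12 with PHO3, PHO89 with PHO5, PHO90 with PHO91, and PHO91 with PHO87. The steps without overlap were PHO84 over PHO11, by 0.99 ± 0.04, PHO11 over PHO12, by 0.83 ± 0.10, PHO3 over PHO89, by 0.63 ± 0.02, and PHO5 over PHO90, by 0.735 ± 0.03 (n = 2 each). With the RNA channel alone, the order was PHO84, PHO11, PHO12, SPL2, PHO5, PHO3, PHO89, PHO91, PHO90 and PHO87. Brightness alone also reflects how well each probe binds, which the DNA channel is meant to remove.

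Of 5 signalling genes of the pathway, 4 lay within 1 of the median gene on the log2 scale, 1 was called above it and 0 below. Among all genes, 28.2% were called above and 31.2% below. The signalling gene called above was PHO81, the inhibitor of the kinase, at 1.75 ± 0.09 (n = 2). The transcription factors PHO4 and PHO2 were at 0.52 ± 0.01 and -0.16 ± 0.05, the cyclin PHO80 at -0.82 ± 0.005 and the kinase PHO85 at -0.56 ± 0.03 (n = 2 each). Genes of inositol phosphate metabolism, whose pyrophosphate products bind SPX domains, were called above in 4 of 6 and below in 1. The kinases KCS1 and VIP1 were at 1.62 ± 0.10 and 1.43 ± 0.01, and ARG82, an earlier kinase of the route, was below at -1.345 ± 0.01 (n = 2 each). On RNA alone, KCS1 at 0.64, the phosphatase SIW14 at 0.965 and ARG82 at -0.77 lost their calls, and the kinase IPK1, at -1.23, was called below.

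Of 11 other genes reported as Pho4 targets, 6 were called above the median gene, 1 below and 4 were not called, with a list median of 1.75. Over all genes, the shares called were 28.2% above and 31.2% below. Of the vacuolar transporter chaperone genes, whose complex makes polyphosphate, the phosphate store of the vacuole, those on this list were above: VTC1 at 3.60 ± 0.05, VTC3 at 2.89 ± 0.06, VTC2 at 2.66 ± 0.03 and VTC4 at 2.43 ± 0.03 (n = 2 each). VTC1 was close to PHO84 and SPL2. PHO8, the vacuolar alkaline phosphatase, was at 2.34 ± 0.03. GIT1, a permease for glycerophosphoinositol, was far below at -3.93 ± 0.09, with its RNA at 65.4 and 80.3, still above the floor. PHM6 and GDE1, a glycerophosphodiesterase, were not called, at 0.75 ± 0.05 and -0.22 ± 0.04 (n = 2 each). With the RNA channel alone, PHM6 was called above, at 1.14, and PHM8, a phosphatase, below, at -1.90. The ratio of PHM8 was -0.36 ± 0.03 (n = 2) and not called, with its DNA signal at percentile 0.88 of all genes. Genes that are reported to be switched on together in low phosphate thus stood at levels from -3.93 to 3.60 in this medium.

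**Figure D5:**
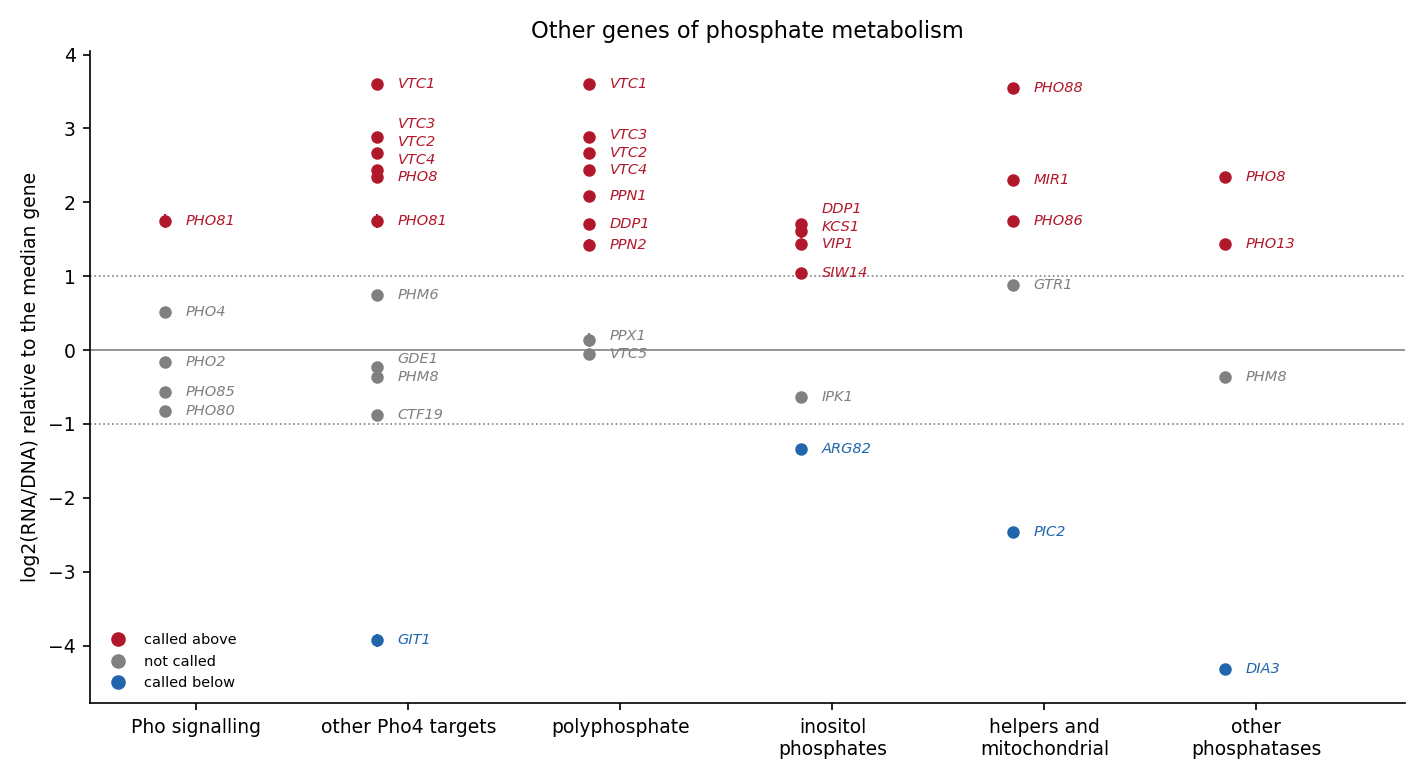
Log2(RNA/DNA) relative to the median gene for other genes of phosphate metabolism, by list, as the mean of 2 arrays with the SD (mostly smaller than the mark); red marks genes called above, blue below and grey not called, dotted lines mark 1 and -1, and a gene on several lists is shown in each. Genes that make polyphosphate reach 3.60 for VTC1, while GIT1 and DIA3 lie at -3.93 and -4.32.

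Of 9 polyphosphate genes, 7 were above and 0 below. Of those 7, VTC1, VTC2, VTC3, VTC4 and DDP1 were on earlier lists too. The polyphosphatases PPN1 and PPN2 were at 2.09 ± 0.01 and 1.42 ± 0.08, while PPX1 was at 0.14 ± 0.095 and VTC5 at -0.05 ± 0.04 (n = 2 each). Of 7 other SPX-domain proteins, 4 were above and 0 below, with SYG1 not called at 0.41 ± 0.06 (n = 2). Those 4 were PHO81, VTC2, VTC3 and VTC4, which were counted among the Pho4 targets already. PPX1 and SYG1 were called above on RNA alone, at 1.03 and 1.055. PHO86, which is needed for PHO84 protein to leave the endoplasmic reticulum, was above at 1.74 ± 0.04, and PHO88, also implicated in phosphate transport, at 3.55 ± 0.02. The mitochondrial phosphate carriers were far apart: MIR1 was at 2.30 ± 0.05 and PIC2 at -2.47 ± 0.02. Of 4 other phosphatase genes, 2 were above and 1 below. That last gene was DIA3, a relative of the secreted acid phosphatases, at -4.32 ± 0.06. Its RNA was at 58.9 and 69.5, above the floors of 17.05 and 32.9. The family of PHO3, PHO5, PHO11 and PHO12 thus also held a gene far below the median gene. Counting each gene of these lists once, 16 of 33 were above, 4 below and 13 not called, with a median of 0.88. These counts stand against 28.2% above and 31.2% below among all genes.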

How the data were processed

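Total RNA (Cy3) and genomic DNA (Cy5) of BY4741 shared the spots of 2 Agilent microarrays, as described in the labels. Dyes were not swapped. Per the submitters' processing notes, the authors read the scans with Agilent Feature Extraction 10.5.1.1. The deposited spot intensity values, linear and background-subtracted, were used, and no dye normalization is recorded, per the file headers. Gradient-corrected signals are the processed intensities, which are these values divided by a fitted surface. Genome build and probe sequences are not given in the sources used here; accordingly, no sequence or coordinate is printed. Names follow the arrays, and other pathway symbols were matched through RefSeq R64 (5756 of 6256 genes matched).

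Kept spots had DNA well above background, and no saturation or non-uniformity in either channel, on both arrays (43721 of 43792 spots, 6250 genes). RNA was floored at 3 SD of 153 negative control spots. A gene's value is the median over spots of log2(RNA/DNA), minus the median over genes. The test was that of limma 3.58.1, run in R 4.3.3 on an intercept with empirical Bayes (two-sided, Benjamini-Hochberg over all genes), against the median gene, PHO3, or the mean of PHO87, PHO90 and PHO91, after a trial on simulated data. Other values came from Python 3.11.15 with numpy 2.4.6, pandas 2.3.3, scipy 1.17.1 and matplotlib 3.10.9. The 10 genes and all lists were chosen with earlier results of these data known. All 10, any listed pathway gene and ACT1 could be named. Likeness across conditions was not computed, since there is 1 condition. Alternatives changed the signal, background, channel, spot summary, spot filter, floor, normalization, thresholds, prior and arrays.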

Additional observations from a re-analysis of the deposited data

How the results depend on the processing

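The high- minus low-affinity difference, 2.33, ran from 2.28 to 2.375 with either array left out and was 2.82 with the RNA channel alone. Chosen after seeing the data, PHO84 alone gave 3.64 and PHO89 alone 1.01. The repressed minus constitutive difference, 0.178, was 1.53 with the RNA channel alone, 0.081 with the mean over spots, -0.661 for PHO5 without PHO11 and PHO12, and 0.597 for those copies without PHO5 (the last chosen after seeing the data). Other settings left both differences within 1 SD between arrays. Without genes at the floor, 5 of the 10 genes were called above the median gene rather than 7, since PHO89 and PHO5 lost their calls. That setting called 1544 of 5702 genes above. With the RNA channel alone, 8 of the 10 were above, and 1805 of all genes. At a log2 threshold of 2, those of the 10 called above the median gene numbered 3 rather than 7, above the low-affinity mean 3 rather than 6, and below PHO3 0 rather than 3. With the adjusted p alone, 1 of the 10 (PHO87) was below the median gene and 5 were below PHO3. Over all genes, 774 were above and 1278 below the median gene at a threshold of 2, and 2944 and 2952 with the adjusted p alone, against 1760 and 1952. Against the low-affinity mean these counts were 738 and 1296, and 2882 and 2984, against 1713 and 1981; above PHO3 they were 188 and 918, against 405, and below PHO3 2680 and 5099, against 4067. PHO91 changed sign, at -0.157 without genes at the floor, a setting that moved the ratios by -0.195. PHO5 against PHO3 changed sign too, at 0.105 with the RNA channel alone. That setting leaves out the DNA signals, which were 1.14 for PHO5 and 0.33 for PHO3 on the log2 scale relative to the median gene. Why these DNA signals differed was not tested. The order of the 10 genes was the same in 6 of 9 settings, but that count does not measure stability. The other floors, no spot filter and leaving out genes at the floor could not reorder these genes. Their RNA was far above the floor and all their spots were already kept. Quantile normalization keeps the ranks within each array. No background subtraction left the order unchanged. The RNA channel alone changed it, and with gradient-corrected signals and the mean over spots, PHO5 passed PHO89. No paired analysis was possible because there is 1 group of samples; differences between genes were taken within each array throughout. With 1 array no limma test can be made, so counts of calls have no value there.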
